A study of Arabidopsis thaliana with 3 samples.

Results

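Tubulin genes were compared between unimbibed and imbibed seed of Arabidopsis thaliana, ecotype Columbia, with imbibed seed TSA-treated or untreated. Members were listed by identity, with earlier results of these data already known, so counts of members are a description only. The α- and β-tubulin loci TUA2, TUA4, TUA6, TUB1, TUB2, TUB4, TUB5, TUB6, TUB8 and TUB9 were listed. A locus was kept where the platform annotation pairs a probe set with it alone. Of these 10 loci, 5 had such a probe set (TUA6, AT4G14960; TUB1, AT1G75780; TUB5, AT1G20010; TUB6, AT5G12250; and TUB9, AT4G20890), among 13286 loci with a probe set of their own on the array. The other 5 listed loci (TUA2, AT1G50010; TUA4, AT1G04820; TUB2, AT5G62690; TUB4, AT5G44340; and TUB8, AT5G23860) were not analysed here, so nothing is said of their levels. All 5 kept loci had 1 probe set each, with the plain name ending that the platform uses for a set designed to a single transcript.

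RNA was measured on 3 Affymetrix ATH1 arrays. They hold seed imbibed for 3 days on Murashige and Skoog medium with 10 µM trichostatin A (TSA), seed imbibed for 3 days on the medium without TSA, and unimbibed seed. TSA blocks histone deacetylases, enzymes that remove acetyl groups from histones. Imbibed seed was kept under 16 h light. The labels give TSA as 10 µM for the treated sample and as 10 mM in the shared protocol, and the sample's own value is used. Each state has 1 array, so no difference has a replicate check, no p-value is given, and precision is limited by the small number of arrays. Whole seed was used, and a lower signal from fewer cells of a type cannot be told apart from less RNA per cell.

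Microtubules are hollow polymers of paired α- and β-tubulin. In growing plant cells the cortical array of microtubules guides where cellulose is laid down and so sets the direction of expansion, and in dividing cells microtubules build the preprophase band, the spindle and the phragmoplast. The embryo of a dry seed is quiescent, and germination depends on renewed cell expansion, later joined by division. Newly made tubulin needs helpers to fold: the CCT chaperonin folds the chains and tubulin-folding cofactors join α- to β-tubulin.

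The labelled states were checked against marker genes. The summed scaled signal of the 3 measured of 6 dry seed markers was 461 with TSA, 74.0 without TSA and 23877 in unimbibed seed. That of the 3 photosynthesis markers was 6041 with TSA, 1055 without TSA and 216 in unimbibed seed. The seed coat marker BAN was at or below the floor on all 3 arrays, the other seed coat marker and the endosperm marker had no probe set of their own, and both root hair markers were above the floor in imbibed seed only. The ratio of 3′ to 5′ signal for actin, a sign of RNA integrity, was 4.31 with TSA, 4.66 without TSA and 1.82 in unimbibed seed. A second actin control set gave 1.43, 1.10 and 1.08 in the same order, and GAPDH gave 1.497, 0.876 and 1.31. Their part in the tubulin results was not tested.

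Tubulin signals are given after scaling the arrays to a common 2% trimmed mean. Signals at or below a floor of 10.7, the 40th percentile of all scaled values, were raised to it before a ratio was taken, so that a ratio involving such a signal is a bound. A gene is said to have risen or fallen where its ratio reached 2-fold. Signals of different probe sets are not compared with each other.

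**Figure D1:**
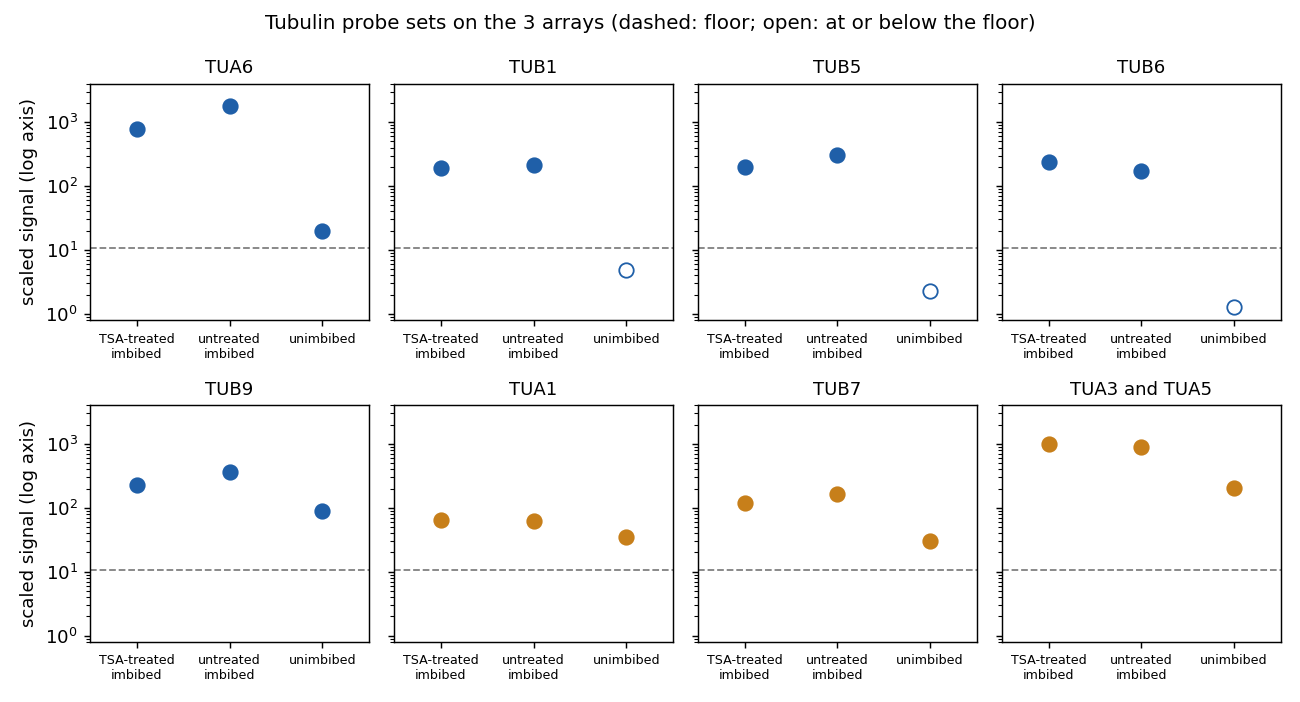
Scaled signal (log axis) of 8 tubulin probe sets on the TSA-treated, untreated imbibed and unimbibed arrays, 1 point per array. Blue panels are the 5 kept loci and orange panels the other tubulin probe sets. The dashed line is the floor of 10.7, and open points lie at or below it. All 8 probe sets were lowest in unimbibed seed, and TUB1, TUB5 and TUB6 were at or below the floor there.

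Tubulin transcripts rose strongly on imbibition without TSA. All 5 kept loci rose, against 22.6% of all 16246 probe sets measured in that comparison, and 0 of 5 fell, against 21.1%. TUB1, TUB5 and TUB6 were below the floor in unimbibed seed and counted as measured only through their imbibed signal. Their ratios could not show a fall, so the count of 0 says nothing of them. TUA6 and TUB9 were above the floor on both arrays. Of all 10756 probe sets above it on both, 2082 rose and 2577 fell. The median log2 ratio of the 5 was 4.30 (3 of the 5 are lower bounds), beside 0.01 over all probe sets measured.

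TUA6, an α-tubulin in which a mutation is known to twist Arabidopsis seedlings into helical growth, had scaled signals of 773 with TSA, 1763 without TSA and 19.7 in unimbibed seed. It was high on both imbibed arrays and close to the floor on the unimbibed array. Its log2 ratio of untreated imbibed over unimbibed seed was 6.48, an 89.6-fold rise. That log2 ratio was 7.20 with no scaling, 7.23 after scaling to hybridisation controls and 8.11 after scaling to poly-A controls, scalings that raised the imbibition ratios of the other tubulins as well. Of the 16246 measured probe sets, 25 had a higher ratio.

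The β-tubulin TUB1, whose transcript is known to fall in seedlings exposed to light, had scaled signals of 192 with TSA, 212 without TSA and 4.89 in unimbibed seed. TUB5 had 202 with TSA, 305 without TSA and 2.30 in unimbibed seed. TUB6 had 239 with TSA, 173 without TSA and 1.29 in unimbibed seed. These 3 β-tubulins were well above the floor in both imbibed states and below it in unimbibed seed, so their rises are bounds: at least 19.7-fold for TUB1, at least 28.4-fold for TUB5 and at least 16.1-fold for TUB6. The size of such a bound follows the floor, and the log2 ratio of TUB6 was 2.93 when the floor was the 60th percentile and 7.06 with no floor.

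TUB9, a β-tubulin known for expression in pollen, had scaled signals of 229.7 with TSA, 367 without TSA and 88.2 in unimbibed seed. It was the 1 kept β-tubulin that was above the floor in unimbibed seed. Its rise on imbibition was 4.16-fold, the smallest of the 5.

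Other members of the family were read from a list of 15 α- and β-tubulins and a pair of γ-tubulins. TUA1 and TUB7 have probe sets of their own but are not among the 10 listed loci, and TUA3 and TUA5 share 1 probe set, which cannot tell them apart. TUB7 had scaled signals of 119 with TSA, 164 without TSA and 30.3 in unimbibed seed, and rose 5.43-fold on imbibition. The shared TUA3 and TUA5 probe set had 1004 with TSA, 895 without TSA and 203 in unimbibed seed, a log2 ratio of 2.14 on imbibition. TUA1, an α-tubulin known mainly from pollen, had 64.25 with TSA, 61.4 without TSA and 34.9 in unimbibed seed. Its log2 ratio of 0.81 on imbibition did not reach 2-fold. Counting these, 7 of 8 tubulin probe sets rose on imbibition without TSA, beside 22.6% of all probe sets measured, and 0 fell. TUB1, TUB5 and TUB6, below the floor in unimbibed seed, could not have shown a fall. The call for TUA1 depends on the scaling: its log2 ratio was 1.53 with no scaling, 1.56 after scaling to hybridisation controls and 2.495 after scaling to poly-A controls. All 8 rose under these 3 scalings, beside 35.3%, 36.0% and 57.3% of all probe sets measured. The loci differed widely within the family, with log2 ratios from 0.81 for TUA1 to 6.48 for TUA6.

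**Figure D2:**
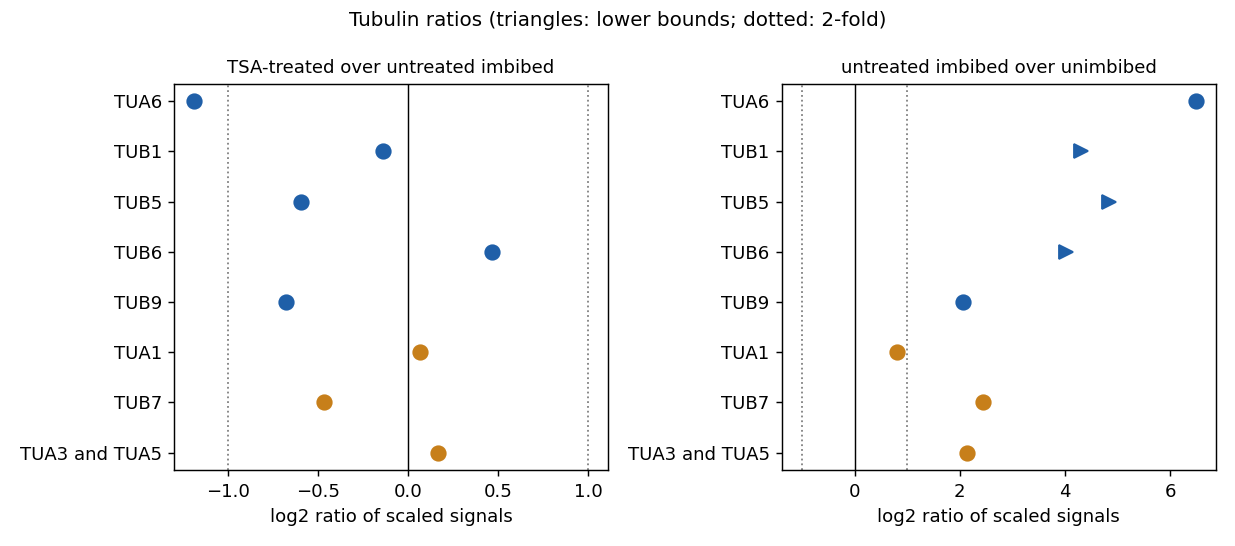
Log2 ratios of scaled signals for 8 tubulin probe sets, for TSA-treated over untreated imbibed seed (left) and untreated imbibed over unimbibed seed (right). Blue marks the 5 kept loci and orange the other tubulin probe sets, triangles are lower bounds and dotted lines mark 2-fold. On the left TUA6 lies beyond 2-fold at -1.19, and on the right TUA1 at 0.81 lies within 2-fold.

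With TSA, TUA6 was the 1 kept tubulin whose signal differed by 2-fold or more from that of untreated imbibed seed. Of the 5 kept loci 1 fell, against 9.51% of all 15700 probe sets measured, and 0 rose, against 10.4%. A count of 1 among 5 does not set the group apart from that share. The 1 that fell was TUA6, at 773 with TSA against 1763 without it, a log2 ratio of -1.19. The SD found between the 2 probe sets of a locus was 0.54 over 49 loci. The spread over all probe sets that exceeded the floor on both imbibed arrays was 0.71. Any ratio that reaches 2-fold is larger than both values. TUA6 was singled out by that call, so its exceeding them was fixed in advance and adds no evidence. Neither value includes the variation between batches of seed. Of all probe sets measured, 6.51% had a lower ratio than TUA6.

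The β-tubulins did not reach 2-fold with TSA. TUB9 had a log2 ratio of -0.68, TUB5 of -0.59 and TUB1 of -0.14, while TUB6 had 0.47. In size, the ratios of TUB5 and TUB9 exceed the root mean square difference of 0.54 between probe sets of a locus and lie within the spread of 0.71. Those of TUB1 and TUB6 lie within both. The median of the 5 was -0.59, beside -0.02 over all probe sets measured. Outside the 5, TUB7 had -0.47, and the log2 ratios of TUA1 (0.07) and of the shared TUA3 and TUA5 probe set (0.17) turned to -0.37 and -0.27 with poly-A controls set equal.

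TUA6 was past 2-fold under all 6 scalings between arrays, with log2 ratios from -1.62 to -1.16. With poly-A controls set equal, which moved the median of all probe sets by -0.40, TUB5 at -1.03 and TUB9 at -1.11 passed 2-fold as well, so 3 of 5 fell there, beside 22.1% of all probe sets measured under that scaling. TUB6 had the highest ratio of the 5 under each of the 6.

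**Figure D3:**
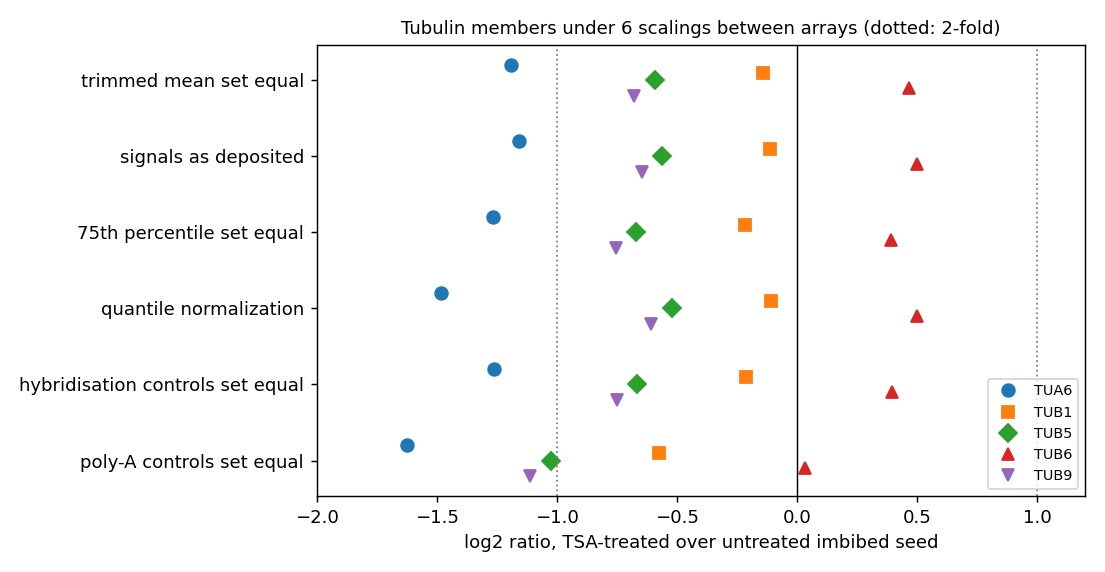
Log2 ratio of TSA-treated over untreated imbibed seed for the 5 kept tubulin loci under 6 scalings between arrays, 1 row per scaling. Dotted lines mark 2-fold. TUA6 lies beyond the left line in every row, and TUB5 and TUB9 do so only in the row with poly-A controls set equal.

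TSA-treated seed was also set against unimbibed seed, and all 5 kept loci were higher, against 23.3% of the 16314 probe sets measured, with 0 of 5 lower, against 23.0%. Here too TUB1, TUB5 and TUB6, below the floor in unimbibed seed, could not have been lower. TUA6 was 39.3-fold higher, TUB9 2.60-fold higher, and the bounds were at least 17.9-fold for TUB1, at least 18.8-fold for TUB5 and at least 22.3-fold for TUB6. The comparisons share arrays, so their values are given side by side only. By state, TUA6, TUB1, TUB5 and TUB9 were highest in untreated imbibed seed and TUB6 in TSA-treated seed, and only for TUA6 were the imbibed states 2-fold or more apart.

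Transcripts for the proteins that fold tubulin were measured through 10 of 21 listed loci, 8 of them CCT chaperonin entries. The platform and gene tables give these 8 by locus tag only, and their place in the chaperonin comes from general knowledge used in writing the list. With TSA all 8 CCT loci fell and the cofactor genes POR and PFI did not reach 2-fold, so 8 of 10 fell, beside 9.51% of all probe sets measured, and 0 rose, with a list median of -1.13 beside -0.02 over all probe sets measured. Log2 ratios of the 8 ran from -1.73 to -1.003, so the weakest of them, AT5G26360, lay at the 2-fold line. With signals as deposited and with quantile normalization 7 of 10 fell, beside 9.45% and 10.3% of all probe sets measured.

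AT5G20890 had scaled signals of 138 with TSA, 383 without TSA and 192 in unimbibed seed. AT3G11830 had 70.7 with TSA, 234 without TSA and 105 in unimbibed seed. AT5G16070 had 34.0 with TSA, 113 without TSA and 39.4 in unimbibed seed. In all 8 chaperonin loci, not only these 3, the untreated imbibed signal was the highest of the 3 states. Against unimbibed seed, the 8 had log2 ratios from -0.84 to 0.34 with TSA. In that comparison 0 of 8 passed 2-fold, beside 23.3% of all probe sets measured that were higher and 23.0% that were lower. The direction of that comparison depends on the scaling: the median of the whole folding list was -0.40, against 0.34 with no scaling, 0.27 after scaling to hybridisation controls and 0.85 after scaling to poly-A controls. Without TSA, 4 of the 8 rose on imbibition, beside 22.6% of all probe sets measured, with ratios from 0.16 to 1.52.

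POR, which encodes tubulin-folding cofactor C, had scaled signals of 21.6 with TSA, 21.5 without TSA and 5.60 in unimbibed seed. PFI, which encodes cofactor E, had 16.2 with TSA, 17.8 without TSA and 1.01 in unimbibed seed. Both were dim in imbibed seed and below the floor in unimbibed seed. POR was at least 2.002-fold higher in untreated imbibed than in unimbibed seed.

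**Figure D4:**
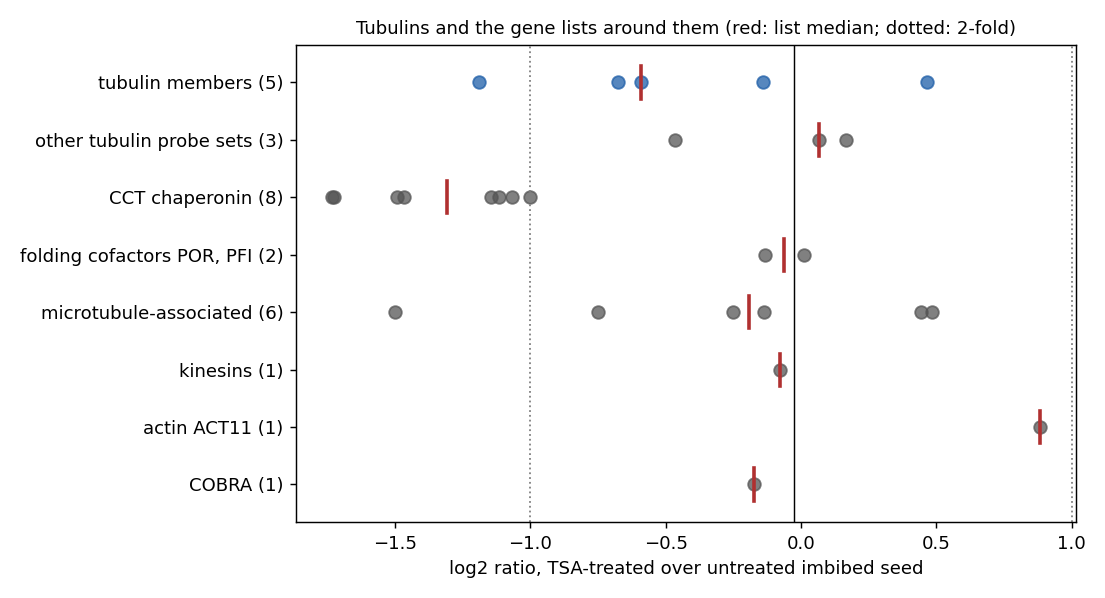
Log2 ratio of TSA-treated over untreated imbibed seed for tubulins and related gene lists, 1 point per probe set, with the number measured in brackets. Red bars are list medians, the solid line is the median of all probe sets measured and dotted lines mark 2-fold. The 8 CCT chaperonin loci lie at or beyond the left line, and 1 of 5 kept tubulins does. The microtubule-associated point at -0.75, SP1L5, is a bound.

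Transcripts for proteins that bind microtubules were measured through 6 of 28 listed loci, and on imbibition without TSA 5 of them rose, beside 22.6% of all probe sets measured. SP1L3, SP1L4 and SP1L5 were below the floor in unimbibed seed and counted as measured only through their imbibed signal. They could not have shown a fall, so the count does not set the list apart from that share. A further locus, SP1L2, was below the floor on all 3 arrays and was not counted. SPR1, which tracks growing microtubule ends and keeps cell expansion straight, had scaled signals of 333 with TSA, 396 without TSA and 84.6 in unimbibed seed. It rose on imbibition by a log2 ratio of 2.23 and had -0.25 with TSA. Its relative SP1L3 had 182 with TSA, 200 without TSA and 4.31 in unimbibed seed, with a log2 ratio of at least 4.22 on imbibition and -0.14 with TSA. SP1L4, of the same small family, had 22.7 with TSA, 64.2 without TSA and 2.59 in unimbibed seed, and it was the 1 of 6 that fell with TSA, at -1.50, beside 9.51% of all probe sets measured. MAP65-6, of a family that bundles microtubules, and TON1B, needed to organise the preprophase band and cortical array, rose on imbibition by 1.85 and 1.01 and had 0.44 and 0.48 with TSA. SP1L5, dim in imbibed seed, had a bound of at least 0.75 on imbibition.

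Of the remaining lists few loci were measured. KINESIN-13A, a microtubule motor family gene, had scaled signals of 99.0 with TSA, 105 without TSA and 40.4 in unimbibed seed, and rose on imbibition by a log2 ratio of 1.37. The actin gene ACT11 had 107 with TSA, 57.9 without TSA and 1.15 in unimbibed seed, with a log2 ratio of at least 2.43 on imbibition and 0.89 with TSA. The actin gene ACT12 had 0.859 with TSA, 2.19 without TSA and 11.6 in unimbibed seed, the last close to the floor. Its log2 ratio of -0.12 on imbibition is a bound. COB, a cell-surface protein that helps orient cellulose deposition, had 374 with TSA, 422 without TSA and 60.1 in unimbibed seed, with 2.81 on imbibition and -0.17 with TSA. None of the 9 listed mitotic cell cycle genes had a probe set of its own, so division was not measured here.

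Root hairs are cells that elongate at the tip, and 2 markers of them were listed. EXPA7 had scaled signals of 30.4 with TSA, 101 without TSA and 1.29 in unimbibed seed, and EXPA18 had 70.9 with TSA, 167 without TSA and 1.29 in unimbibed seed. Both of the 2 listed markers fell with TSA, beside 9.51% of all probe sets measured, at log2 ratios of -1.74 and -1.24, and their sum was 101 with TSA, 269 without TSA and 2.59 in unimbibed seed. Dry seed and photosynthesis markers rose with TSA, 3 of 3 measured in each list, beside 10.4% of all probe sets measured. The part of these cell types and programmes in the tubulin values was not tested.

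The genes whose pattern was most like that of TUA6 were ranked by the Euclidean distance between pairs of log2 ratios (untreated imbibed over unimbibed, and TSA-treated over untreated) over 5228 named probe sets above the floor on all 3 arrays. The nearest was JAL34, a jacalin-related lectin, at a distance of 0.73, with log2 ratios of -0.61 with TSA and 6.93 on imbibition. The next were HRGP1 at 1.40, AT4G08410 at 1.43, RALFL34, of the RALF peptide family, at 1.54 and the calreticulin gene CRT1b at 1.54. The HRGP1 and AT4G08410 probe sets have the name ending _x_at, not the plain one, and may not be specific to 1 gene. All 5 had a smaller size of change than TUA6 in at least 1 of the ratios, and with 3 arrays the ranking is a description only.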

How the data were processed

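The authors deposited 1 linear intensity per probe set and array. The submitters' processing notes name MAS5, while the program's version, target level and detection flags were not given in the sources used here. Columns were matched to the 3 samples by name. Of 22810 probe sets, 64 controls were set aside. Trimmed means before scaling were 44.4 with TSA, 43.4 without TSA and 26.5 in unimbibed seed, a difference over 5%, so arrays were scaled by 0.859, 0.877 and 1.44 in that order. Ratios were taken after the floor, with pandas 2.3.3 and scipy 1.17.1, and the procedure was tested on simulated data. That simulation covered TSA-treated over untreated seed only, with known changes placed in bright probe sets only. It did not cover the ratios against unimbibed seed. Scaling to a common trimmed mean hides any change in total messenger RNA. Names came from the platform annotation, which gives 1 gene for 13513 probe sets, several for 503 and none for 8730, updated through RefSeq's TAIR10.1 table, where 13436 of the 13513 matched. No genome build was stated, so no coordinates are given. Named genes are the kept loci, the other tubulin probe sets, some of the list members past 2-fold and the 5 patterns nearest to TUA6. Not every list member past 2-fold is named, and further list members were named after their values were seen. The members and the 7 gene lists were chosen with earlier results of these data known. Other scalings, floors and call sizes were tried as alternatives.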

Additional observations from a re-analysis of the deposited data

How the results depend on the processing

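All 5 kept tubulins were higher in untreated imbibed than in unimbibed seed under every scaling, floor and call size tried, and none fell in that comparison. Wherever the floor lay above their unimbibed signals, TUB1, TUB5 and TUB6 could not have fallen. The median of the 5 on imbibition was 5.43 with the floor at the 25th percentile, 3.22 at the 60th and 6.48 with no floor, and for TSA-treated over unimbibed seed it was 5.30, 3.16 and 5.30, because 3 of the 5 are bounds set by the floor. With TSA against untreated seed, 3 of the 5 (3 of all 8 tubulin probe sets) were lower with poly-A controls set equal, 3 (also 3 of 8) at a 1.5-fold call and 0 at a 4-fold call. Of all probe sets measured, 22.1%, 21.4% and 0.95% were lower under these settings, in that order. Over all 8, the median was 4.44 on imbibition with poly-A controls set equal and 4.16 for TSA-treated over unimbibed seed without the shared probe set. In the folding list, 0 of 10 were lower with TSA than without at a 4-fold call. On imbibition 8 rose with signals as deposited, 9 with hybridisation controls, 10 with poly-A controls set equal, 8 at a 1.5-fold call and 0 at 4-fold, and the median was 2.51 with poly-A controls. For TSA-treated over unimbibed seed the folding list had 1 higher, beside 23.3% of all probe sets measured. It had 2 with signals as deposited, hybridisation controls, the 25th percentile floor, no floor or a 1.5-fold call, and 3 with poly-A controls (median 0.85). It had 0 with the 75th percentile, quantile normalization, the 60th percentile floor or a 4-fold call. Of all probe sets measured, the share higher under these settings ran from 11.1% at a 4-fold call to 44.5% with poly-A controls. At 1.5-fold 2 of the folding list were lower, beside 34.0% of all probe sets measured. The part of a shift of all probe sets in these changes was not tested. On imbibition the median of all probe sets moved by 0.53 with signals as deposited, by 0.55 with hybridisation controls set equal and by 1.21 with poly-A controls. The share of calls that were higher on imbibition was 51.7%, against 75.7%, 76.7% and 92.3% under these. With TSA over untreated seed it was 52.3%, and 22.4% with poly-A controls; for TSA-treated over unimbibed seed it was 50.3%, and 75.2%, 73.1% and 86.7%. No paired analysis was possible because each state has 1 array. Probe sequences were not used here, so binding of a probe set to a near-identical tubulin transcript was not tested.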
